A study of Mus musculus with 6 samples.

Results

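Round and elongating spermatids, the haploid cells that follow meiosis, pack their DNA and build a tail with genes that are largely silent in earlier germ cells. Transition proteins first replace the histones on the DNA, and protamines then replace the transition proteins, so that the sperm nucleus becomes compact. Many of these messages are made in round spermatids, stored and translated later, and the activator CREM switches on many of them. This account covers 10 such genes in the testes of knockout and control mice: the transition proteins Tnp1 and Tnp2, the protamines Prm1 and Prm2, the tail and mitochondrial sheath genes Odf1 and Smcp, the antizyme Oaz3, the kinases Tssk1 and Tssk2, and Spem1. The rule takes them by gene symbol, although the set was proposed with earlier results of these data known, and each of the 10 had 1 transcript cluster (a set of probes that together read 1 transcribed region) among the 21789 clusters with a single symbol, which stand for 19938 genes.

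RNA from whole testes was measured on Affymetrix mouse gene arrays, 3 from knockout and 3 from control mice, all at postnatal day 15, when the first wave of germ cells has come as far as pachytene of meiosis. The labels give no strain and no design of the allele. They do not say that replicates came from different animals, and the spread behind each p-value may therefore be technical. Values are log2 intensities on which the medians of the arrays lay between 8.075 and 8.1, and the small number of arrays limits the precision. The tissue label was checked against marker genes. Of the germ cell markers 8 of 8, of the Sertoli cell markers 10 of 10 and of the Leydig cell markers 5 of 5 measured genes lay above the array median, while 5 of 7 epididymis markers lay below it. Control replicate 3 stood apart in single epididymis markers, though not over the list. Spink8, chosen after its values were seen, read 5.57, 5.55 and 5.41 in knockout arrays, against 5.38, 5.60 and 9.31 in control arrays. Lcn5 was also highest there, at 7.48 beside 6.53 to 6.93 in the other 5 arrays. Lcn8, Lcn9, Rnase10 and Defb19 lay within the range of the other 5 arrays, and Cst11 read 8.45 there beside 8.39 in control replicate 1. Because of Spink8 and Lcn5, the spermatid genes are also given without control replicate 3.

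In none of the 10 spermatid genes did knockout and control testes differ past the threshold. The differences, knockout minus control, ran from -0.10 for Tssk2 to 0.21 for Prm1 in log2 units. Their standard errors lay between 0.046 and 0.115. Adjusted p-values over all 21789 clusters (limma, Benjamini-Hochberg) lay between 0.434 and 1, so 0 of 10 were called at an adjusted p under 0.05, where 0.0138% of all tested clusters were called. At an unadjusted p under 0.05 there was 1 of 10, Prm1, against 10.6% of all clusters. In 0 of 10 genes were the 3 knockout values separate from the 3 control values, which held for 15.3% of all clusters. The median difference over the 10 genes was -0.01, with 4 above and 5 below 0 and Tssk1 at 0, and the median over all tested clusters was 0.00. With 1 array left out, that median ranged from -0.05 (without control replicate 3) to 0.02 (without control replicate 2) and so lay on either side of 0. Without control replicate 3, 0 of 10 genes were called, and their differences ran from -0.14 for Tssk2 to 0.19 for Prm1. Over all 10 genes the 95% intervals of the differences ran from -0.36 to 0.40, or from 0.777-fold to 1.32-fold. These intervals bound the differences in array signal only. Most of the 10 genes read low, as given below, and differences of dim clusters are compressed. No detection calls were used, so the intervals do not bound the fold changes of the transcripts.

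**Figure D1:**
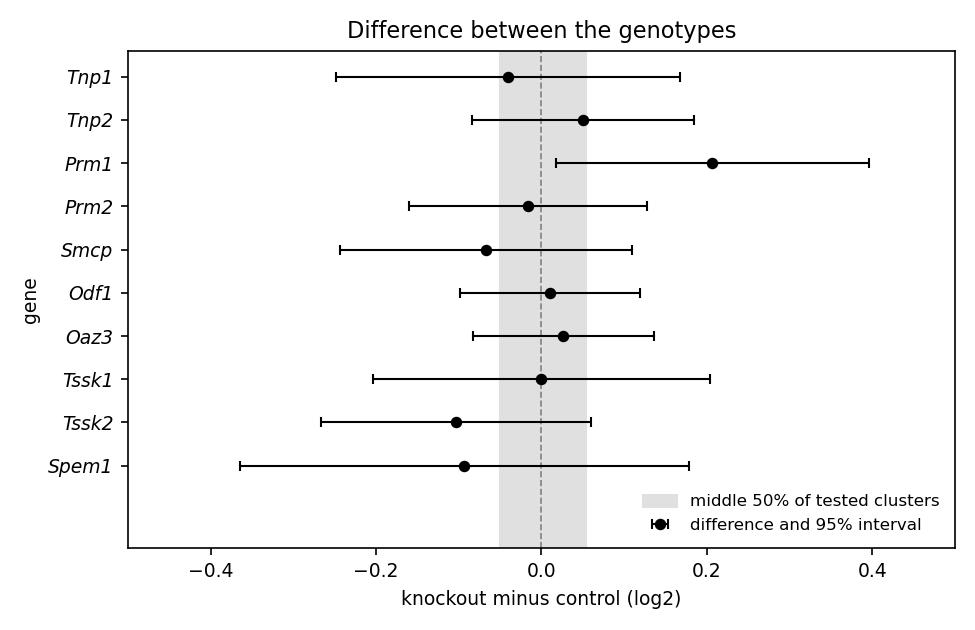
Difference between knockout and control testes for each of the 10 genes, knockout minus control on the log2 scale (horizontal axis), with the 95% interval from limma as bars (3 arrays per group). The grey band spans the lower to the upper quartile of all tested clusters, -0.05 to 0.05. The interval of Prm1 alone lies above 0, from 0.02 to 0.40, and its adjusted p is 0.434.

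Against the median of its array, most of these genes read low in both genotypes. Of the 10 genes, 8 lay below the array median in all 6 arrays. Tnp1 was at -2.35 ± 0.11 in knockout and -2.31 ± 0.17 in control arrays (log2 units from the array median, mean ± SD, n = 3 each), and Spem1 was at -2.30 ± 0.24 in knockout and -2.20 ± 0.11 in control arrays. These places correspond to about the 11th percentile of the tested clusters: over the 6 arrays Tnp1 lay between percentiles 9.54 and 12.2 and Spem1 between 9.08 and 12.7. Smcp, Odf1 and Oaz3 lay between -1.94 and -1.60 in every array, and Tnp2, Tssk1 and Tssk2 between -1.47 and -0.94.

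The protamine genes lay near the median of all rows of their arrays, but below the middle of the tested clusters. Prm2 lay at 0.03 ± 0.04 in knockout and 0.05 ± 0.12 in control arrays, and Prm1 at 0.00 ± 0.16 in knockout and -0.20 ± 0.08 in control arrays. Prm2 was above the array median in 3 arrays and below it in 2, and lay on it in the remaining array. The median of the tested clusters was higher than that of all rows in every array. Among the tested clusters, Prm1 lay between percentiles 38.9 and 44.8 over the arrays, and Prm2 between 42.7 and 45.7. Probes differ in affinity and in background, and no detection calls were used here, so a place against the array median orders no transcripts by abundance and shows neither that a gene is silent nor that it is on. For that reason the 10 genes are called spermatid genes here, and whether any of them is already transcribed at this age was not settled by these values.

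**Figure D2:**
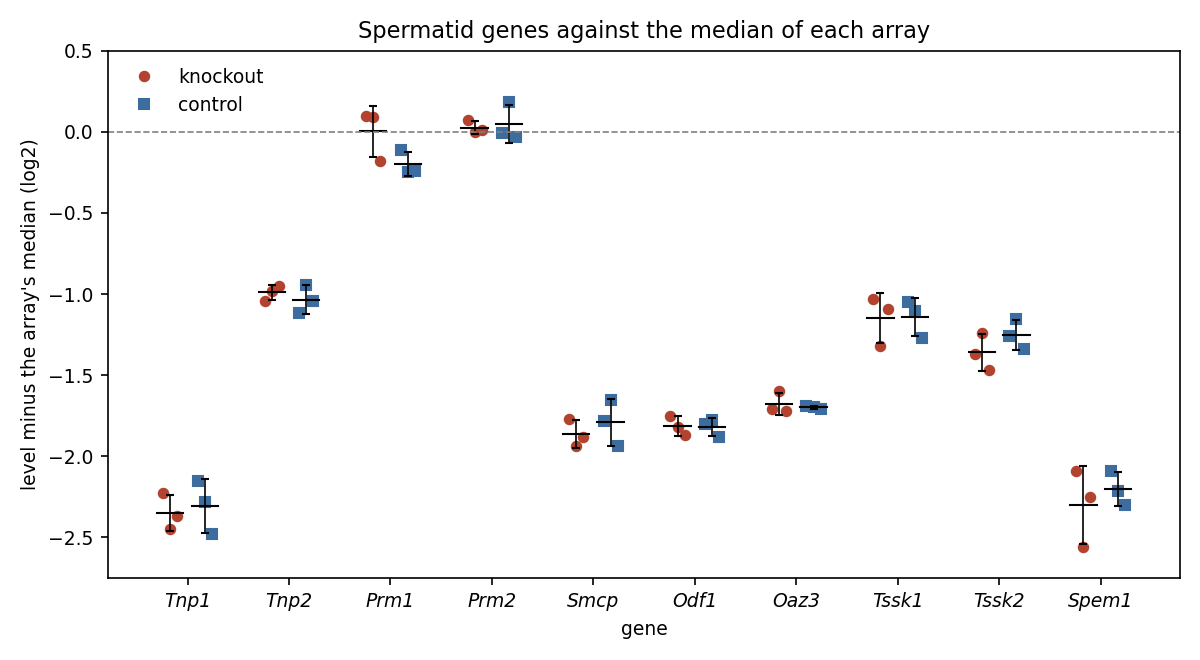
Level of each gene against the median of its own array (vertical axis, log2 units) in knockout arrays (red circles) and control arrays (blue squares), with the mean and SD of 3 arrays as black bars. Prm1 and Prm2 lie near the array median and the other 8 genes below it in every array, and the symbols of the 2 genotypes overlap for all genes.

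Lists of other genes are given beside these places as descriptions only. For genes known from other tissues, the 35 measured genes, such as hormones, lens crystallins and liver proteins, had a median of -1.61 in knockout and -1.59 in control arrays, and 32 of them lay below the array median. The 10 spermatid genes had a median of -1.52 in knockout and -1.48 in control arrays, with 9 of 10 below the median by their mean over the 6 arrays. A further 33 spermatid genes had a median of -1.45 in knockout and -1.32 in control arrays, with 29 below. Genes of pachytene spermatocytes lay higher, with a median of 0.46 in knockout and 0.92 in control arrays and 13 of 20 above the array median. No test was made between these lists. Single genes of other tissues also reached high places, Actn3, a muscle actinin, at 1.69 and Ahsg, a liver plasma protein, at 1.61 above the median, so 1 gene's place says little.

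**Figure D3:**
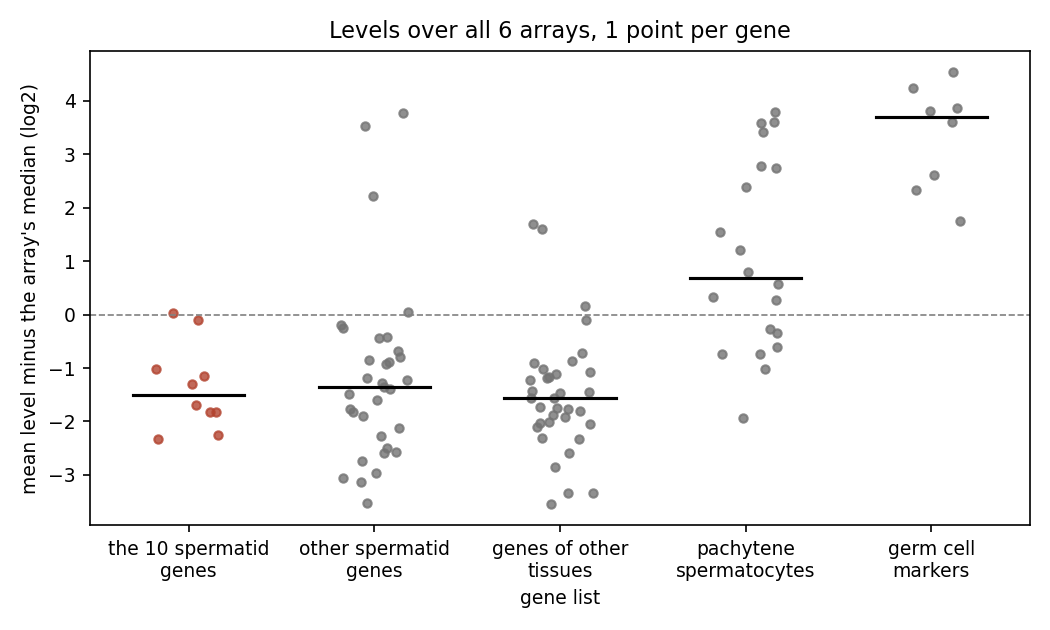
Mean level over the 6 arrays minus the array median (vertical axis, log2 units), with 1 point per gene and the median of each list as a black line, and horizontal scatter added for legibility. The 10 spermatid genes (red) run from -2.33 to 0.04, inside the wider ranges of the other spermatid genes (-3.52 to 3.77) and of the genes of other tissues (-3.54 to 1.69), while the germ cell markers all lie above 0.

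The transition proteins and protamines form the chromatin group. Tnp1, a small basic protein that binds DNA between histones and protamines, read 5.85, 5.64 and 5.73 in knockout arrays, against 5.93, 5.79 and 5.62 in control arrays. Its highest and lowest values were both in control arrays, and the difference was -0.04 (SE 0.089, adjusted p = 0.915). Tnp2, its zinc-binding counterpart, read 7.04, 7.11 and 7.15 in knockout arrays, against 6.96, 7.13 and 7.06 in control arrays. The groups overlapped, with a difference of 0.05 (SE 0.057, adjusted p = 0.805).

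Prm1, the protamine made directly in its mature form, had the largest difference of the 10. It read 8.18, 8.18 and 7.92 in knockout arrays, against 7.97, 7.83 and 7.86 in control arrays. Knockout replicates 1 and 2 lay above all controls, and knockout replicate 3 lay below control replicate 1. The mean was 8.09 ± 0.15 in knockout and 7.89 ± 0.074 in control arrays (SD, n = 3 each), a difference of 0.21 (1.15-fold, SE 0.081, unadjusted p = 0.0364 in limma) that did not pass after adjustment (adjusted p = 0.434). With any single array left out its difference ranged from 0.16 to 0.29, and its adjusted p-values ranged from 0.332 to 0.718 over all settings tried. In bulk tissue, a change in the number of cells of a type and a change in RNA per cell cannot be told apart.

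Prm2, which is made as a precursor and trimmed, had a difference near 0. It read 8.15, 8.09 and 8.11 in knockout arrays, against 8.07, 8.26 and 8.07 in control arrays, and control replicate 2 held the highest value. The difference was -0.02 (SE 0.061, 95% interval -0.16 to 0.13, adjusted p = 0.953). On chromosome 16 the protamine genes lie side by side with Tnp2, in the order Socs1, Tnp2, Prm3, Prm2 and Prm1 in the gene table of assembly GRCm38.p6. The neighbours outside the 10 genes did not pass either: Prm3, a protamine-related gene, differed by 0.07 (SE 0.065, adjusted p = 0.764) and Socs1, an inhibitor of cytokine signalling, by -0.01 (SE 0.068, adjusted p = 0.967). The difference between Prm1 and its neighbours was not itself tested.

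Promoter sequence was available in RefSeq (GRCm38.p6) for 8 of the 10 genes, all but Odf1 and Oaz3, as 250 bases before and 50 after the start of each gene. Because CREM binds the cyclic AMP response element, these windows were searched for its full palindrome TGACGTCA and for the looser form TGANNTCA, which contains the palindrome and reads the same on both strands. The looser form was chosen after the promoters had been read. The full palindrome was in 0 of 8 of these windows and in 1.79% of all 32851 promoter windows, and TGANNTCA was in 5 of 8 and in 14.1% of all windows. The stretches that hold it are shown because they are what the 5 genes share, with the match in capitals.
Tnp1 (chr1:73015960-73016019, minus strand): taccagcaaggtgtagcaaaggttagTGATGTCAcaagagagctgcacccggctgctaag
Prm1 (chr16:10796854-10796913, minus strand): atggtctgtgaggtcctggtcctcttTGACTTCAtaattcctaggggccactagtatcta
Smcp (chr3:92589031-92589060, minus strand): ggagagtattaTGATGTCAtaaaagagctg
Tssk1 (chr16:17894129-17894188, plus strand): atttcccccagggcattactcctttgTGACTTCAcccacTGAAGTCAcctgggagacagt
Tssk2 (chr16:17898553-17898612, plus strand): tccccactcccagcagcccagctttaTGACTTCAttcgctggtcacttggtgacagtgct
The matches end 86 bases before the start in Tnp1, 56 in Prm1 and 50 in Tssk2, and Tssk1 holds a pair that end 40 and 27 bases before it. In Smcp the match lies 24 bases after the annotated start. Tnp1 and Smcp carry the same 8 letters, TGATGTCA, while Prm1, Tssk1 and Tssk2 carry TGACTTCA. The 5 genes with a match had differences of -0.04 (Tnp1), 0.21 (Prm1), -0.07 (Smcp), 0 (Tssk1) and -0.10 (Tssk2), and none of them passed the threshold. Whether a match goes with the difference was not tested. A match is a description of the letters, and whether CREM binds there was not tested.

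Genes of the tail and the mitochondrial sheath came next. Smcp, a cysteine- and proline-rich protein of the capsule around sperm mitochondria, read 6.31, 6.15 and 6.22 in knockout arrays, against 6.30, 6.42 and 6.16 in control arrays. The groups overlapped (difference -0.07, SE 0.075, adjusted p = 0.801). Odf1, the main protein of the outer dense fibres that stiffen the tail, read 6.33, 6.27 and 6.23 in knockout arrays, against 6.28, 6.30 and 6.22 in control arrays. This was the tightest of the 10 measurements, with a difference of 0.01 and a 95% interval of -0.10 to 0.12 (adjusted p = 0.962).

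Oaz3, the antizyme of haploid germ cells, restrains the polyamine enzyme ornithine decarboxylase. It read 6.37, 6.49 and 6.38 in knockout arrays, against 6.39, 6.38 and 6.39 in control arrays, so only knockout replicate 2 departed from a common value. The difference was 0.03 (SE 0.047, adjusted p = 0.884). Spem1, needed for the removal of cytoplasm from the elongating sperm head in mice, read 5.99, 5.53 and 5.85 in knockout arrays, against 5.99, 5.86 and 5.80 in control arrays. Knockout replicate 2 held the lowest value and made this the widest interval of the 10, -0.36 to 0.18, around a difference of -0.09 (adjusted p = 0.826). Without that array the difference of Spem1 was 0.04.

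Tssk1 and Tssk2 are related testis-specific serine kinases of spermatids whose genes neighbour each other on chromosome 16. Tssk1 read 7.05, 6.77 and 7.01 in knockout arrays, against 7.03, 6.97 and 6.83 in control arrays, and the group means were equal (6.94 ± 0.15 in knockout and 6.94 ± 0.10 in control, SD, n = 3 each; 95% interval of the difference -0.20 to 0.20). Tssk2 read 6.71, 6.85 and 6.63 in knockout arrays, against 6.82, 6.92 and 6.76 in control arrays. Knockout replicates 1 and 3 lay below all controls and knockout replicate 2 among them, for a difference of -0.10 (SE 0.070, adjusted p = 0.654).

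Relative to the control mean of each gene, 7, 5 and 3 of the 10 genes lay higher in knockout replicates 1, 2 and 3, and 7, 7 and 2 in control replicates 1, 2 and 3. Each array was the highest for some genes and the lowest for others, except control replicate 3, which was lowest or tied for lowest in 3 genes and highest in 0. Knockout replicate 1 was highest or tied in 4 genes and lowest in 1, while knockout replicate 2 was highest or tied in 2 and lowest in 3. In knockout replicate 2, Prm1 lay 0.29 above and Spem1 0.35 below the control mean of that gene. The median deviation of the 10 genes from the control mean was 0.04, -0.02 and -0.03 in the knockout arrays and 0.01, 0.03 and -0.07 in the control arrays, so the groups overlapped. Of the 10 genes, 7 belonged to the dimmest 25% of tested clusters, in which the median deviation was 0.04, -0.04 and 0.03 in the knockout arrays and -0.01, 0.02 and -0.01 in the control arrays. The residual SD of the 10 genes had a median of 0.103, beside 0.0993 in those dim clusters and 0.0705 over all tested clusters.

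**Figure D4:**
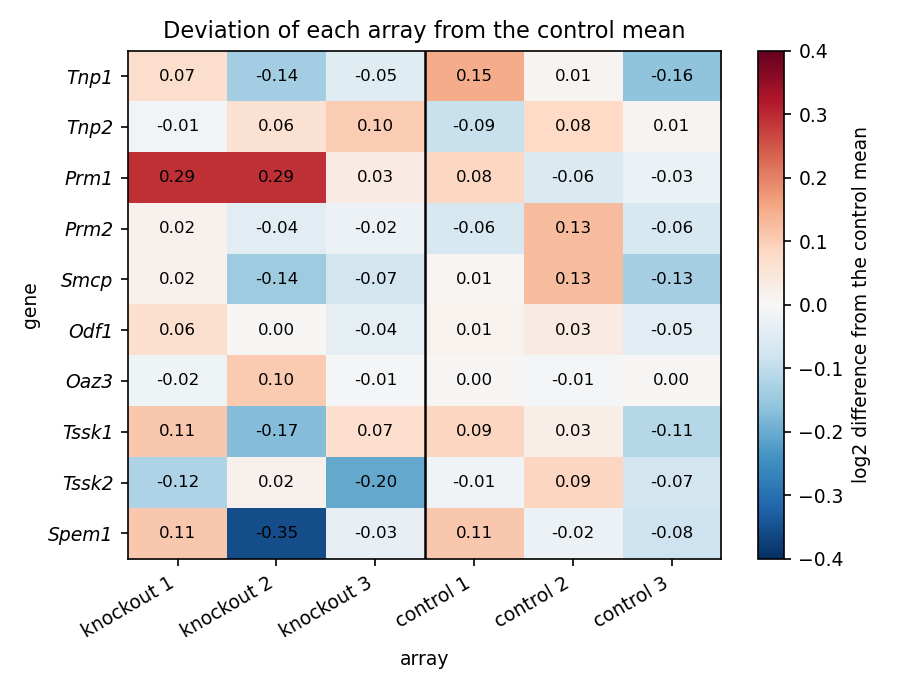
Deviation of each gene (rows) in each array (columns, knockout left of the line and control right of it) from that gene's control mean, on the log2 scale; red is higher and blue lower. The most extreme cells are Prm1 in knockout replicates 1 and 2 (0.29) and Spem1 in knockout replicate 2 (-0.35), and no array is of 1 colour throughout.

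Other genes of the haploid programme were read from lists around the 10. None of them passed an adjusted p of 0.05 in limma. Among 14 measured genes of haploid chromatin, 0 were higher and 3 lower at an unadjusted p under 0.05, where 4.1% of all clusters were higher and 6.45% lower, and the median difference was -0.01. The count of 3 was 1 without knockout replicate 1, knockout replicate 2 or control replicate 2. Phf7, a chromatin reader in male germ cells, had a difference of -0.42 (SE 0.10, adjusted p = 0.320) and Brdt, a bromodomain protein of spermatocytes and spermatids, one of -0.17 (SE 0.060, adjusted p = 0.397). The testis histones H2ac1 and H2bc1, which are laid down before the transition proteins, had the highest levels of that list, 5.77 and 4.80 above the array median, and differed by -0.02 each.

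The list of tail genes was drawn widely and is not confined to parts of the tail. It held both flat members and members with lower values. Of 27 measured genes 1 was higher and 6 lower at an unadjusted p under 0.05, beside 4.1% and 6.45% of all clusters, with a median of -0.06. Cfap20dc read 8.75, 9.02 and 8.92 in knockout arrays, against 9.21, 9.28 and 9.26 in control arrays (difference -0.35, SE 0.071, adjusted p = 0.287). All 3 knockout values lay below the control values, as they did for Spata6, a gene of the head-to-tail connection (-0.18, SE 0.047, adjusted p = 0.322). The genes with the highest levels, Fabp9 (-0.34), a testis lipid-binding protein, and Ropn1l (-0.49), a protein of the tail sheath, had overlapping groups. Among tail genes named after their values were seen, Akap4, the main scaffold of the fibrous sheath, had a level of -2.70 against the array median and a difference of -0.02. Odf4, an outer dense fibre gene with a level of 0.46, had a difference of -0.84 (SE 0.28, adjusted p = 0.385). The number of genes lower in this list was 10 without control replicate 1 and between 4 and 9 without any other single array.

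Relatives and partners of the kinases and of the antizyme had small differences. Of 8 kinases and partners, 1 was higher and 1 lower at an unadjusted p under 0.05, beside 4.1% and 6.45% of all clusters, with a median of 0. Tssk5 differed by 0.16 (SE 0.067, adjusted p = 0.463) and Camk4, a calcium-dependent kinase of spermatids, by -0.13 (SE 0.043, adjusted p = 0.378). Ppp1cc, a phosphatase subunit with a testis form, and Tsks, a substrate of the kinases, had the highest levels and differed by -0.09 and 0.01. Without knockout replicate 1 or 3, 0 genes of this list were lower. Of 6 measured antizyme and polyamine genes 0 reached an unadjusted p under 0.05 in either direction, with a median of -0.03. Oaz2, a general antizyme, differed by -0.09, Odc1, ornithine decarboxylase itself, by -0.04, and Srm, spermidine synthase, by -0.02.

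Genes that regulate haploid transcription or store its messages lay below the control mean in 18 of 24 cases, beside 10232 of all 21789 tested clusters. Of the 24 measured genes 0 were higher and 10 lower at an unadjusted p under 0.05, beside 4.1% and 6.45% of all clusters. The median difference was -0.14. Papolb, the cytoplasmic poly(A) polymerase in male germ cells, read 8.07, 8.06 and 8.18 in knockout arrays, against 8.29, 8.68 and 8.59 in control arrays (difference -0.42, SE 0.099, adjusted p = 0.310). Tbpl1, a TBP-related factor needed for spermatid genes in mice, differed by -0.19 (SE 0.049, adjusted p = 0.320). In both the knockout values lay below all control values. The highest levels were those of Pabpc1, the poly(A)-binding protein, and Ybx1, an RNA-binding protein, which differed by 0.02 and 0.01.

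A few further regulators were chosen after their values were seen, for their known tie to the 10 genes. Crem differed by -0.16 (SE 0.13, adjusted p = 0.707), with overlapping groups. Ybx2, which stores protamine messages in mice, read 10.62, 10.63 and 10.77 in knockout arrays, against 10.76, 11.11 and 11.05 in control arrays, and knockout replicate 3 lay just above control replicate 1 (difference -0.30, SE 0.095, adjusted p = 0.376). Ddx25, a helicase that carries such messages out of the nucleus, differed by -0.24 (SE 0.075, adjusted p = 0.376), and all knockout values lay below the control values. The number of regulators lower was 5 without control replicate 2, 6 without control replicate 3, knockout replicate 1 or knockout replicate 2, and 9 to 11 without either other array.

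A further list of spermatid genes had a median near 0, like the 10. Of 33 measured genes 0 were higher and 2 lower at an unadjusted p under 0.05, with 18 above and 15 below the control mean and a median of 0.00. The 2 were Tuba3a, an alpha-tubulin of the testis (-0.22, SE 0.048, adjusted p = 0.294), which also had the highest level, and Cmtm2b (-0.48, SE 0.20, adjusted p = 0.453), while Gkap1, with the next highest level, differed by -0.07. That count was 5 without control replicate 1 and 1 without knockout replicate 1, knockout replicate 2 or control replicate 3. Of 20 genes of pachytene spermatocytes 0 were higher and 11 lower, beside the same shares of all clusters, with a median of -0.29. Ccna1, the meiotic cyclin A1 (-0.27, adjusted p = 0.320), and Tcte2 (-0.36, adjusted p = 0.347) had the smallest p-values, and Meig1 (-0.13) and Sycp3 (-0.10), a protein of the synaptonemal complex, the highest levels. Leaving out control replicate 2 made this 4 genes, control replicate 3 made it 5, and knockout replicate 1 or 2 made it 6. Without control replicate 1 or knockout replicate 3 it was 13. The pachytene list and the list of regulators share Piwil1.

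The pachytene list spread widely within the control group. The median deviation of the pachytene list from the control mean was -0.33, -0.30 and -0.18 in the knockout arrays and -0.21, 0.18 and 0.02 in the control arrays, so control replicate 1 lay among the knockouts. For the regulators it was -0.14, -0.14 and -0.10 in the knockout arrays and -0.04, 0.06 and -0.01 in the control arrays, with separate groups. The control arrays are centred by construction, as deviations are taken from the control mean. Separate groups were also seen in 15.3% of all single clusters, and the separation of this list was not tested. Marker lists of the cell types in the testis were counted in the same way. At an unadjusted p under 0.05 in limma, 4.1% of all clusters were higher and 6.45% lower. Beside these shares, 3 of 8 germ cell markers were lower and 0 higher (median -0.07), and 1 of 10 Sertoli cell markers was higher and 0 lower (median 0.08). Among Leydig cell markers 1 of 5 was higher and 1 lower (median 0.37), and 3 of 8 macrophage markers were higher and 0 lower (median 0.14). Single Leydig markers were then named after their values were seen. Cyp17a1 (difference 0.39) read 9.93 in control replicate 3, beside 10.98 to 11.4 in the other 5 arrays. Star (difference 0.45) read 10.79 in knockout replicate 3, beside 9.41 to 9.92 in the other 5 arrays. Cyp11a1, whose difference of 0.37 is the median of that list, had separate groups. Of the 2 measured erythrocyte markers 1 was higher (median 0.20), and of 7 epididymis markers 0 were higher and 1 lower (median 0.01), with Spink8 at a difference of -1.25 (SE 0.95) that rests on control replicate 3. The part of these medians in the values of the spermatid genes was not tested.

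**Figure D5:**
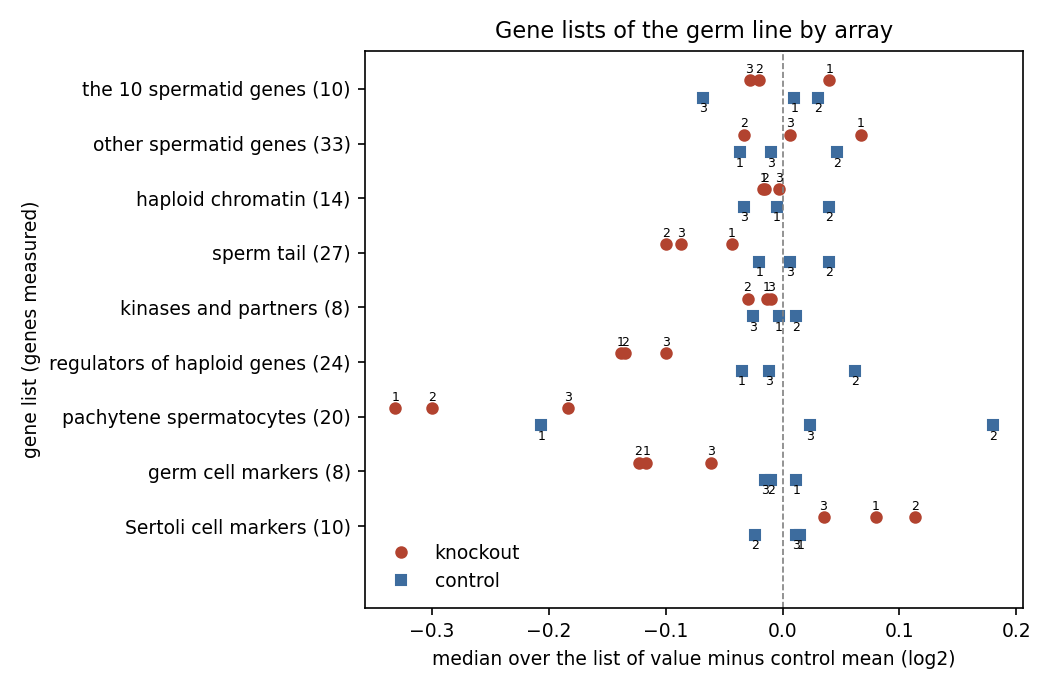
Median over each gene list of the value minus the control mean (horizontal axis, log2 units) in each knockout array (red circles, above) and control array (blue squares, below), numbered by replicate, with the number of genes measured in parentheses. The 10 spermatid genes lie between -0.07 and 0.04 in all arrays with both genotypes mixed, while the regulators lie lower in every knockout array and the pachytene list spreads from -0.33 to 0.18. The control arrays are centred by construction, and differences between the lists were not tested.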

How the data were processed

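Testis RNA was prepared with Trizol and a column kit and biotin-labelled, per the labels' protocols. The deposited values are on the log2 scale, 1 per transcript cluster and array; the authors made them with RMA in Affymetrix Expression Console, per the submitters' processing notes. Its version is not given in the sources used here, nor is the build of the probe design. RMA gives all arrays 1 distribution, which hides a shift of all transcripts, and differences of dim clusters are compressed.

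Of 35556 rows, 21789 with 1 gene symbol in the platform annotation were tested; 1621 with several symbols and 12146 unnamed were left out. Symbols were updated through gene identifiers to GRCm38.p6, where 21698 matched. Groups and replicate numbers came from the labels. Knockout minus control was fitted in R 4.3.3 with limma 3.58.1 (lmFit, eBayes, no covariates, 4 residual and 3.24 prior degrees of freedom), with Benjamini-Hochberg adjustment and a threshold of 0.05. The procedure was tested on simulated data. At most 4.12% of values were identical between 2 arrays. The level is the value minus the median of all rows of that array.

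The members and the gene lists were chosen with earlier results of these data known. All 10 members are named. In each list around them the 2 genes with the smallest p and the 2 with the highest level are named. Lists of cell markers are instead given by counts, with single markers named after their values were seen. Of the other tissues only the highest levels are given. A gene with several clusters is represented in its list by the brightest. Alternatives were leaving out each array, the replicate number as a block, an intensity trend with robust prior, leaving out the dimmest 25% of clusters, testing all rows, and centring the arrays. The targeted gene is not reported here.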

Additional observations from a re-analysis of the deposited data

How the results depend on the processing

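None of the 10 genes passed an adjusted p of 0.05 in limma under any alternative (0 of 103 values, adjusted p 0.332 to 1); centring, the intensity trend, the replicate block and testing all rows turned no sign. Leaving out 1 array turned the sign of 7 of these values, each without passing the threshold: Tnp1 without control replicate 1 (0.035) or knockout replicate 2 (0.01), Prm2 without control replicate 2, Odf1 without knockout replicate 1 or control replicate 3, and Oaz3 and Spem1 without knockout replicate 2. Tssk1, at 0 in the main fit, had no sign to turn and could not be counted under any alternative. After centring, Tssk1 was at -0.005. With 1 array left out, Tnp1 ranged from -0.12 to 0.035, Prm2 from -0.048 to 0.047, Odf1 from -0.017 to 0.033, Oaz3 from -0.012 to 0.048 and Spem1 from -0.193 to 0.037; of the others, Tnp2 ranged from 0.005 to 0.09, Smcp from -0.133 to -0.0033, Tssk1 from -0.057 to 0.087 and Tssk2 from -0.163 to -0.053. The median over the 10 genes ranged from -0.0525 to 0.018. With the dimmest 25% of clusters left out, 3 of the 10 genes remained (Prm1, Prm2 and Tnp2), so no median over the genes was taken. The number of clusters called in the whole table, 3, was 0 with the replicate block, 0 when all rows were tested, 7 with an intensity trend and robust prior, and 0 to 52 when 1 array was left out, with 52 without control replicate 1. The labels do not say that equal replicate numbers pair the samples, so the numbers were not taken to pair them. The deviations of arrays with the same replicate number correlated at 0.167, -0.0536 and 0.170, and those of arrays with unlike numbers at -0.23 to 0.0843, which does not settle the pairing. Under the replicate block 0 of the 10 genes was called. Set against the median of the clusters with 1 symbol, the median level of the 10 genes was -1.965 in knockout and -1.93 in control arrays, in place of -1.53 and -1.47 (medians taken per array and then averaged; taking each gene's mean first gives the -1.52 and -1.48 above); the array medians of those clusters are higher. Counts of genes lower at an unadjusted p in the lists, added after the data were seen, moved with single arrays as given above. Most of the 10 genes are dim, and without detection calls the smallest change they could show above background is not known.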
